A study of Homo sapiens with 4 samples.

Results

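SK-N-MC is an established Ewing sarcoma cell line that carries a fusion of EWSR1 with the ETS transcription factor gene FLI1. In this line, acetylation of lysine 27 on histone H3 (H3K27ac) was mapped by ChIP-seq, in which DNA bound to an antibody's target is pulled down and sequenced, and the authors called peaks against an input library of total chromatin. The results below describe that H3K27ac peak list across all protein-coding genes. Its members were all unique intervals of the deposited list on chromosomes 1 to 22 and X of hg19. The list had 62198 lines, of which 37271 were different intervals, since MACS2 repeats an interval once for each summit. Of these, 37195 lay on the chromosomes used. They were 37195 of 93355 regions in all peak lists of the series, which also profiled FLI1 (36305 regions) and SSRP1, a subunit of the FACT histone chaperone (19855 regions). The study had 4 libraries: 1 for each target and 1 input, all from SK-N-MC cells grown in MEM with serum, and the labels name no treatment. Chromatin was cut with micrococcal nuclease and sonicated. With 1 H3K27ac library of 1 cell line there was no replicate check, so no test between groups was made. Intervals in parentheses are 95% Clopper-Pearson intervals and cover counting error over genes or peaks only.

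H3K27ac is deposited by the acetyltransferases p300 and CBP and removed by histone deacetylases. It marks nucleosomes beside active promoters and active enhancers, while a promoter without it can be silent, poised or held by repressive marks. CpG islands, stretches of DNA that keep their CG dinucleotides, lie at the promoters of most widely used genes and of many developmental regulators. A gene is called acetylated here when an H3K27ac peak reached within 2.5 kb of any of its transcription start sites (TSSs), and bare otherwise. That stretch is called the TSS window. The words describe presence or absence of a deposited peak, not a level, because the list holds no peak strength.

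The 200 bases before the canonical TSS are shown for 6 genes, picked after their values were seen, to set CpG-rich and CpG-poor promoters of either state beside each other (hg19, gene strand, 5′ to 3′, CG dinucleotides in capitals). PRKCB, a protein kinase C gene used as an Ewing sarcoma marker, and POU3F2, a neural POU factor gene, had acetylated promoters with 23 and 19 CG dinucleotides in these bases. SOX1, a neural progenitor factor gene, and PHOX2A, a sympathetic neuron factor gene, had bare promoters with 22 and 23. SOX6, an SRY-box factor gene, was acetylated with 2. LCE3A, a gene of the skin's cornified envelope, was bare with 3.
PRKCB, chr16:23847104-23847303, plus strand: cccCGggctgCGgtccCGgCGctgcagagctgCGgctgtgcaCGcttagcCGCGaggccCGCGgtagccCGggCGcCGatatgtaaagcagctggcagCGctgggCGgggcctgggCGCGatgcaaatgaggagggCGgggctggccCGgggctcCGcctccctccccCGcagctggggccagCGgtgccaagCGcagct
POU3F2, chr6:99282250-99282449, plus strand: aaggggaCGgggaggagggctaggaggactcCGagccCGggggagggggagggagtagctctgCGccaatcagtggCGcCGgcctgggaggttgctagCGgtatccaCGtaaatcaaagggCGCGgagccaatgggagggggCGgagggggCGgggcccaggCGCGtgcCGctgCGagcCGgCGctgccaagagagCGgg
SOX1, chr13:112721263-112721462, plus strand: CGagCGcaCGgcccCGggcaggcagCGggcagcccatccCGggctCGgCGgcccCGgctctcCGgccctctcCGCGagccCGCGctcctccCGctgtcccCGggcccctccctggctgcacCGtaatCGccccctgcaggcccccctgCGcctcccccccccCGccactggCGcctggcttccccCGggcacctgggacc
PHOX2A, chr11:71955221-71955420, minus strand: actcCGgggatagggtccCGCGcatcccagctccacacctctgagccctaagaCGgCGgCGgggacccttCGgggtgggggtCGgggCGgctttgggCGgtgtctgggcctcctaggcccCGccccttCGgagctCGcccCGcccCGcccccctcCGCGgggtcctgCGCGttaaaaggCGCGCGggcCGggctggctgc
SOX6, chr11:16378093-16378292, minus strand: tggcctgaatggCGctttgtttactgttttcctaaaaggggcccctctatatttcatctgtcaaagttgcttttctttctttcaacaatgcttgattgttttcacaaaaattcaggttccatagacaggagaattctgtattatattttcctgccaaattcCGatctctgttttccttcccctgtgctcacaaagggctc
LCE3A, chr1:152595580-152595779, minus strand: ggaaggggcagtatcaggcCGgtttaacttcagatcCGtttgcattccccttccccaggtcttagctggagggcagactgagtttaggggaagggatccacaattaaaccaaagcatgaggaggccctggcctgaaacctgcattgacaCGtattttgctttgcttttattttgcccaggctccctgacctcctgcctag

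The peaks were mostly narrow. Their median width was 653 bp, with quartiles at 406 and 1278 bp and a maximum of 25447 bp, and 1626 peaks had the minimum width of 300 bp. Together they covered 38.7 Mb, or 1.28% of the chromosomes. The 3719 widest peaks held 33.8% of the acetylated bases. A single summit was found in 66.2% of peaks (65.7 to 66.7%), and 224 peaks had 10 or more. Peaks in a TSS window numbered 14470, or 38.9% of the list (38.4 to 39.4%), with a median width of 1037 bp. The other 22725 peaks, called distal, had a median width of 526 bp. The acetylated bases were split almost evenly between them, with 49.7% in peaks at a TSS and 50.3% in distal peaks.

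The peaks with most summits lay both at promoters of protein-coding genes and far from them. Start sites of noncoding genes were not used. A peak with 35 summits spanned 23657 bp at PLEC, which encodes the cytoskeletal linker plectin. Next came a peak of 25447 bp with 34 summits (chr14:102991996-103017442), whose nearest TSS was that of ANKRD9 at a distance of 15860 bp. A peak of 24876 bp with 34 summits (chr9:132239270-132264145) had NTMT1, an N-terminal methyltransferase gene, as its nearest gene 107018 bp away. The others were a peak of 18177 bp with 29 summits 41255 bp from SEC22A (chr3:122861359-122879535) and a peak of 19165 bp with 28 summits in a TSS window of BAHCC1 (chr17:79368077-79387241). So 3 of these 5 peaks lay outside every TSS window.

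Of 20090 protein-coding genes, 11624 were acetylated, or 57.9% (57.2 to 58.5%), and 8466 were bare, or 42.1% (41.5 to 42.8%). Genes with more annotated TSSs were acetylated more often. The share was 44.2% for genes with 1 TSS, 62.1% for genes with 2 to 4 and 75.4% for genes with 5 or more, and a gene with more start sites also has more windows to meet a peak. The widest promoter peak of an acetylated gene had a median of 1379 bp (quartiles 898 and 2020 bp), and 310 acetylated genes (2.67%) had a promoter peak over 5000 bp. Neighbouring genes shared peaks: 2477 promoter peaks (17.1%) lay in the windows of at least 2 genes, so acetylated genes are not independent counts.

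CpG content separated acetylated from bare promoters. At the canonical TSS, which 19800 genes had and of which 57.0% were acetylated, promoters were classed by the 500 bp on each side. Of 8392 CpG-rich promoters (observed/expected CpG of at least 0.75 and GC of at least 55%), 80.1% were acetylated (79.3 to 81.0%). Of 6000 intermediate promoters, 64.8% were acetylated, and of 5408 CpG-poor promoters (observed/expected under 0.48), 12.6% (11.7 to 13.5%). The CpG-rich share was 67.6 percentage points above the CpG-poor share (66.3 to 68.8). The rise was steepest in the middle of the range: 23.7% were acetylated at an observed/expected CpG of 0.4 to 0.5, 45.0% at 0.5 to 0.6 and 64.5% at 0.6 to 0.7. Above 0.9 it levelled, with 84.4% at 0.9 to 1.0 and 84.7% at 1.0 to 1.1. The interval of the open last bin, with 24 promoters, reached from 62.6 to 95.3%.

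**Figure D1:**
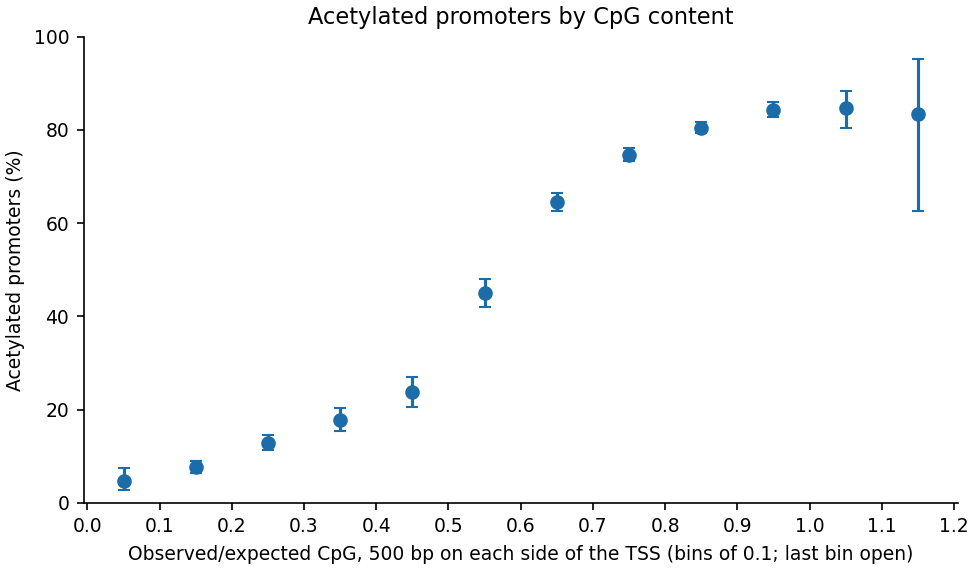
Share of canonical promoters with an H3K27ac peak within 2.5 kb (vertical axis, percent) by observed/expected CpG in 500 bp on each side of the TSS (horizontal axis, bins of 0.1, the last open). Points are shares and bars are 95% Clopper-Pearson intervals. The share climbs from 4.75% in the lowest bin to 84.7% at 1.0 to 1.1.

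A CpG-rich promoter was not always acetylated. Among bare genes, 1612 (19.0%) had a CpG-rich canonical promoter. Transcription factor families of development (HOX, other homeobox, forkhead, SOX, T-box, GATA and KLF, and basic helix-loop-helix, 237 genes) had 123 members with a CpG-rich promoter, of which 58 were acetylated, or 47.2% (38.1 to 56.4%). Over all genes with a CpG-rich promoter the share acetylated at any TSS was 80.8% (79.9 to 81.6%), so these intervals did not overlap. SOX1 and PHOX2A, whose sequences are given above, are 2 of these bare CpG-rich promoters. For SOX1 the nearest peak to any TSS of the gene was 520 kb away and for PHOX2A 18.6 kb away. The GC content of the 200 bases shown was 81.5% for bare SOX1 and 76.0% for acetylated PRKCB, so high GC stood in promoters of either state.

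Within the CpG-rich class, short motifs still differed between acetylated and bare promoters. All motifs were searched on both strands from 250 bases before to 50 after the canonical TSS, and a match is a description of the sequence only. The ETS core CCGGAAG was in 20.5% of acetylated CpG-rich promoters (19.5 to 21.5%) and in 5.76% of bare ones (4.69 to 6.99%), against 14.1% of all promoters. The site of NRF1, a factor of nuclear genes for mitochondria was in 15.9% and 4.86%, against 8.45% of all promoters. The YY1 site was rarer, with 3.27% and 0.120%, against 2.01% of all. These 3 letter strings were each more frequent where H3K27ac was called.

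Other motifs differed less, or the other way. The E-box CACGTG was in 11.4% of acetylated (10.6 to 12.2%) and 8.04% of bare CpG-rich promoters (6.78 to 9.45%), against 8.76% of all promoters. The CCAAT box (CCAAT) was in 34.2% (33.0 to 35.3%) and 29.4% (27.2 to 31.7%), against 36.0% of all, so both were somewhat more frequent in acetylated ones. The cAMP response element TGACGTCA was in 3.78% of acetylated (3.33 to 4.26%) and 2.64% of bare CpG-rich promoters (1.93 to 3.53%), against 2.68% of all promoters. The SP/KLF box GGGCGG was in 84.2% of acetylated and 86.9% of bare CpG-rich promoters, with 61.5% over all promoters. The TATA box TATAAA was in 4.84% of all acetylated promoters and in 16.0% of bare ones, against 9.65% of all promoters. Within the CpG-poor class it was in 14.4% (11.9 to 17.3%) and 22.9% (21.8 to 24.2%). Within the CpG-rich class the intervals overlapped, at 3.64% (3.21 to 4.12%) and 4.92% (3.93 to 6.07%).

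Promoters of acetylated genes for the ribosome and respiratory chain, chosen after their values were seen, illustrate the ETS core and the NRF1 site (hg19, gene strand, 5′ to 3′, the motif on either strand in capitals). MRPL20 encodes a mitochondrial ribosomal protein and RPS14 a cytoplasmic one, and each stretch holds 2 ETS cores. MRPS9 encodes another mitochondrial ribosomal protein and NDUFA11 a subunit of respiratory complex I, and each stretch holds 1 NRF1 site.
MRPL20, chr1:1342674-1342747, minus strand: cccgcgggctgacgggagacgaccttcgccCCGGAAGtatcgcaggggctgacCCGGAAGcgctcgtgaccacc
RPS14, chr5:149829312-149829418, minus strand: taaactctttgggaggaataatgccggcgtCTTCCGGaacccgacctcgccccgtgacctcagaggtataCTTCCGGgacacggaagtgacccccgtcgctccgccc
MRPS9, chr2:105654457-105654526, plus strand: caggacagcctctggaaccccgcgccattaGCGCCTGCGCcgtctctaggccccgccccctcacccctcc
NDUFA11, chr19:5903860-5903929, minus strand: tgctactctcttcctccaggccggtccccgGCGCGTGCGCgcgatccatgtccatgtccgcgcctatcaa

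Around the canonical TSS, coverage by H3K27ac peaks was highest downstream. At 200 bp into the gene, 52.4% of 19800 promoters lay inside a peak, compared with 48.6% at the TSS itself. Upstream, coverage dipped to 38.7% at 200 bp and recovered slightly to 39.8% at 300 bp. The same shape was seen in CpG-rich promoters, with 77.1% at 200 bp downstream and 58.7% at 200 bp upstream. At 1000 bp it was 15.1% upstream and 20.7% downstream. CpG-poor promoters reached 6.40% at most, at 100 bp downstream.

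**Figure D2:**
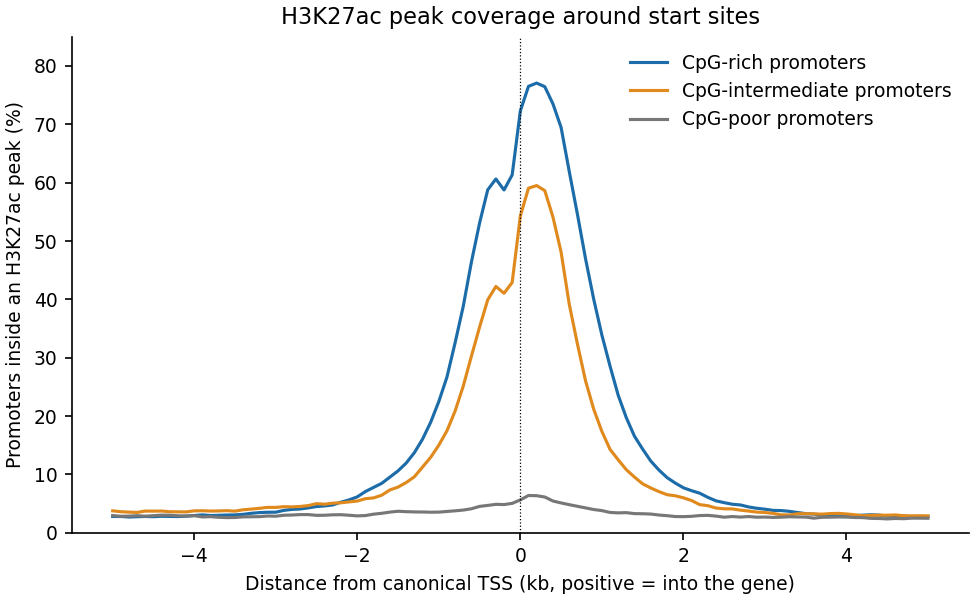
Share of canonical promoters whose position at each distance lies inside an H3K27ac peak (vertical axis, percent), against distance from the TSS in kb (horizontal axis, positive into the gene), for CpG-rich, intermediate and CpG-poor promoters. CpG-rich promoters peak at 77.1% at 200 bp downstream, with a dip to 58.7% at 200 bp upstream.

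At 11294 canonical promoters with a peak, 85.2% had a peak that covered the TSS. Peaks lay on both sides without covering it at 408 promoters (3.61%), downstream only at 760 (6.73%) and upstream only at 498 (4.41%). Divergent promoters, with an opposite-strand canonical TSS of another protein-coding gene at most 1000 bp upstream, were acetylated in 1772 of 1876 cases (94.5%, 93.3 to 95.4%), against 53.1% of 17924 others (52.4 to 53.9%). Within the CpG-rich class the shares were 97.6% of 1064 divergent and 77.6% of 7328 other promoters. Acetylated divergent promoters were covered at 500 bp upstream in 88.5% of cases and the others in 55.1%. At 500 bp downstream the order was the other way, with 75.3% and 80.4%. A divergent promoter has a second TSS within its window, so a peak there counts for both genes.

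The lineage gene lists placed the acetylated promoters of the line beside markers of other tissues. All 12 of 12 Ewing sarcoma identity genes were acetylated (73.5 to 100%), beside 57.9% of all genes. So were 12 of 12 widely expressed genes. Of 4 lists for lineages that Ewing sarcoma has been compared with, neural crest and mesenchyme and fibroblast each had 8 of 12. Neural progenitor genes had 4 of 12 and sympathetic neuron genes 3 of 12. The 16 lists of other cell types had 26 of 175 together, or 14.9% (9.94 to 21.0%). They ranged from 0 to 4 genes a list, with heart at 4 of 10, mature neuron at 4 of 12 and glia at 3 of 10, close to or above the shares of the neural progenitor and sympathetic neuron lists. The heart genes were TBX5, GATA4, TNNI3 and RYR2. CpG-rich canonical promoters were held by 25 of the 175 markers of other cell types, 7 of 12 identity genes and 10 of 12 widely expressed genes. Over all genes they were held by 8392 of 20090. Of the 25, 6 were acetylated, beside 6780 of those 8392. CpG content thus differed between the lists, and its part in these shares was not tested. The identity list was drawn up from knowledge of this tumour and with earlier results of these data known, so its count describes the line and supports nothing further.

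**Figure D3:**
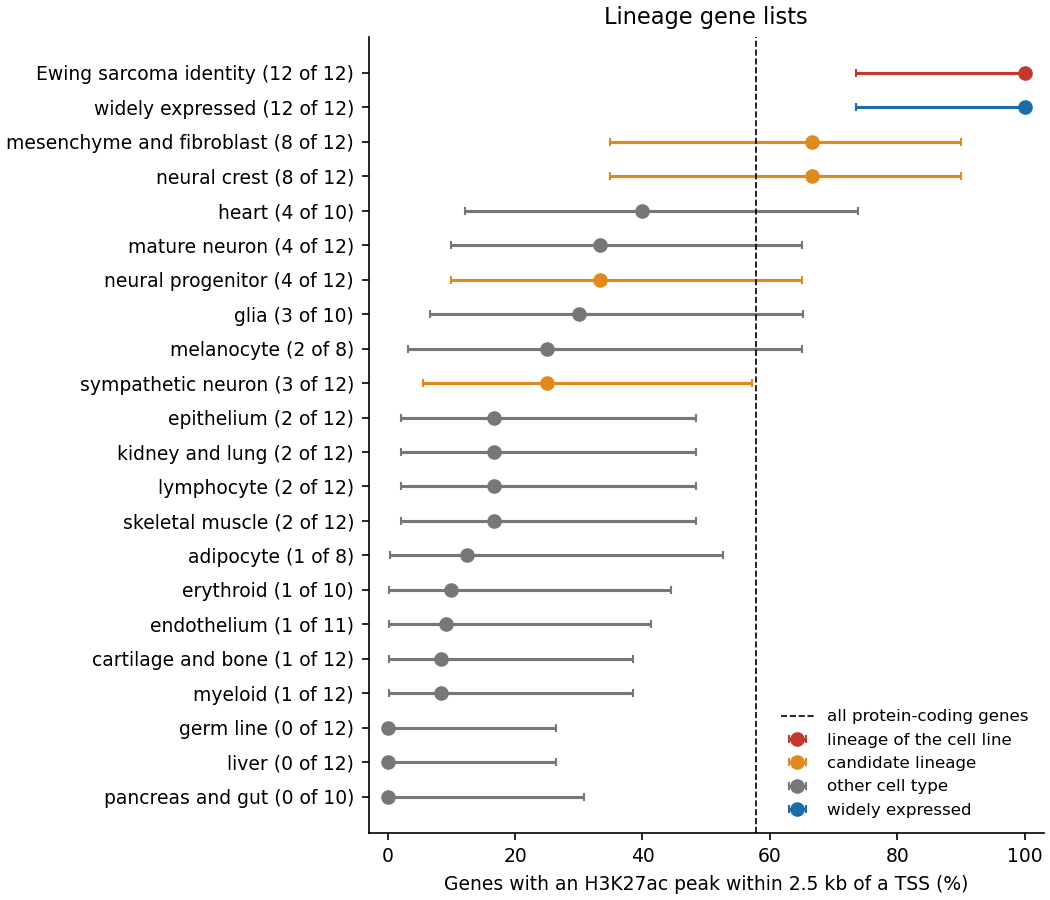
Share of genes with an H3K27ac peak within 2.5 kb of a TSS (horizontal axis, percent) in each lineage list (rows, with counts). Points are shares, bars are 95% Clopper-Pearson intervals, colours give the role of the list, and the dashed line marks all protein-coding genes at 57.9%. The Ewing sarcoma identity and widely expressed lists stand at 12 of 12, and the liver, pancreas and gut, and germ line lists at 0.

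The Ewing sarcoma identity genes differed much in extent. The widest promoter peak was 12977 bp at CCND1, which encodes cyclin D1, and 11409 bp at BCL11B, a zinc finger factor gene. It was 8390 bp at NKX2-2, a homeobox gene that serves as a diagnostic marker, and 5285 bp at CD99, the surface protein gene used in diagnosis. NR0B1, an orphan nuclear receptor gene, had 3630 bp, and GLI1, an effector gene of Hedgehog signalling, 1787 bp. These widths all exceeded the median of 1379 bp, while KLF15, a Krüppel-like factor gene, had 465 bp. CD99 lies in a region shared by the X and Y chromosomes, where a read can match both.

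Acetylated bases in the gene and 2.5 kb on each side had a median of 1045 bp over all genes and 1864.5 bp over acetylated genes. Over the identity list the median was 12118 bp. PRKCB (chr16:23847304-24231932) had the most, with 50378 bp, followed by SOX6 with 36315 bp, BCL11B with 34889 bp and PAX7, a paired box gene, with 31809 bp. STEAP1, a membrane protein gene, had 3902 bp, all in its promoter peak. These counts were not adjusted for gene length, which was 384629 bp for PRKCB against a median of 27.3 kb over all genes. In all, 155 distal peaks had an identity gene as the nearest, and 11 of the 12 had at least 1, beside 23.7% of all genes. PAX7 and BCL11B each had 30 and PRKCB had 29, but GLI1 had 0. An FLI1 peak lay in the TSS window of 9 of the 12 genes, beside 29.0% of all genes, and an SSRP1 peak in that of 11, beside 35.8%. SOX6 had neither and was the CpG-poor identity gene shown above. The shares over all genes include bare genes, while every identity gene was acetylated. The list was drawn up from knowledge of this tumour and of these data. The counts of this paragraph therefore describe its genes and support nothing further.

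Within the neural crest list, the acetylated genes were TFAP2A, TFAP2B, PAX3, SNAI2, TWIST1, MSX1, MSX2 and NGFR. TWIST1, a factor of mesenchymal change, had a promoter peak of 10974 bp, and TFAP2B, an AP-2 factor of the crest, one of 8240 bp with 17 distal peaks nearest to it. SNAI2 had 434 bp only. SOX10, SOX9, FOXD3 and ETS1 were bare. The nearest peak to the SOX9 TSS was 254 kb away and that to ETS1 275 kb away, while FOXD3 had one at 4.84 kb. So this list was divided: both AP-2 genes, both MSX genes and PAX3 were acetylated, while SOX10, SOX9, FOXD3 and ETS1 were not.

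Mesenchyme genes were also divided. PRRX1, a homeobox gene of limb and skull mesenchyme, had a promoter peak of 4987 bp, VIM, which encodes the intermediate filament vimentin, 2566 bp, and COL1A2, a type I collagen chain gene, 2376 bp. COL1A1, the gene of the partner chain, was bare with its nearest peak 20.4 kb away, as were TWIST2, PDGFRA and CDH2. Of the neural progenitor genes, POU3F2 had the widest promoter peak of any gene in these lists, 15058 bp. OTX2, a factor of the forebrain, had 6137 bp, SOX2, a stem cell factor, 3893 bp, and PAX6 1566 bp. SOX1, SOX3, NES, OLIG2, HES5, LHX2 and NEUROG2 were among the bare genes. Of the 7 genes on this list with a CpG-rich promoter, only POU3F2 was acetylated.

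Sympathetic neuron genes were mostly bare. HAND2 and GATA2, factors of sympathetic precursors, had promoter peaks of 2044 and 3577 bp, and ISL1 one of 498 bp. PHOX2A, GATA3 and INSM1, other factors of this lineage, were bare, as were the catecholamine enzyme genes TH and DBH and the granule genes CHGA and CHGB.

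Among the 26 acetylated markers of other cell types, the median of the widest promoter peak was 1004 bp and 18 lay below the median of all acetylated genes, as at EMCN of endothelium (353 bp), CHRNA1 of muscle (329 bp) and SNAP25 of neurons (335 bp). CD79A, a B cell receptor subunit gene, was an exception with 11307 bp, as was MYMK, a gene of muscle cell fusion, with 4695 bp. KRT8 and KRT18, simple epithelial keratin genes, were acetylated with 1027 and 1966 bp, and EPCAM and CDH1 were bare. None of 12 liver, 10 pancreas and gut or 12 germ line genes was acetylated, which the intervals limit to at most 26.5%, 30.8% and 26.5%. Bare promoters did not always mean bare loci. TP63, a basal epithelial factor gene, had 12497 bp in the gene and 12 distal peaks, and PAX5, a B cell factor gene, 8805 bp and 8.

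Some gene families were acetylated nearly throughout. Families were groups of at least 8 genes defined by their symbols, 89 in all. In 11 of them at least 90% of members were acetylated, 469 of 483 genes. All members were acetylated in 4: mitochondrial ribosomal proteins (78 of 78), respiratory complex I subunits (37 of 37), RNA polymerase subunits (33 of 33) and the MCM, ORC, GINS and RFC replication factors (24 of 24). Cytoplasmic ribosomal proteins had 82 of 84, translation initiation factors 44 of 46 and proteasome subunits 45 of 48. Ubiquitin-conjugating enzymes and aminoacyl-tRNA synthetases each had 33 of 34, Mediator subunits 28 of 30, and the COMMD, TIMM and TOMM proteins 32 of 35. Of the 483 genes, 54.9% had a CpG-rich canonical promoter.

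The 14 bare members of these families include at least 6 known forms of a particular tissue or setting. RPL3L and RPL10L are the muscle and testis copies of ribosomal protein genes. PSMB11 and PSMA8 encode the thymus and testis forms of proteasome subunits, and PSMB8 a subunit of the immunoproteasome. PSMB9 and PSMB10, which encode other immunoproteasome subunits, were acetylated. The widest promoter peak of PSMB9 was only 357 bp, against a median of 1389 bp over the acetylated proteasome genes. EIF4E1B is an oocyte form of a cap-binding factor. LARS2, the mitochondrial leucyl-tRNA synthetase gene, was bare with the nearest peak 119 kb from the closest of its TSSs. The other bare members were UBE2U, EIF2S3B, MED12L, MED27, COMMD7, COMMD9 and TOMM20L. Families with general cell functions that fell below 90% were DEAD and DEAH box helicases (45 of 53), SR and hnRNP splicing factors (31 of 36), heat shock proteins and chaperonins (63 of 76) and cytochrome c oxidase and ATP synthase subunits (27 of 33). The 6 bare members of the last family were COX6A2, COX7A1, COX6B2, COX7B2, COX8C and ATP5MGL, of which COX6A2 and COX7A1 are muscle forms and COX6B2 a testis form.

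At the other end, at most 10% of members were acetylated in 19 families, 25 of 909 genes, and 1.10% of these genes had a CpG-rich canonical promoter. No member was acetylated in 11 of them. These were MAGE antigens (26 genes), bitter taste receptors (24), the PRAME family (24), late cornified envelope proteins (19), type I interferons (17), killer cell and leukocyte Ig-like receptors (17), MS4A proteins (16), kallikreins (15), small proline-rich proteins (11), Toll-like receptors (10) and trace amine and vomeronasal receptors (10). Olfactory receptors had 5 of 399 (0.408 to 2.90%), and keratin-associated proteins 5 of 94. Interleukins had 1 of 38 (IL17D, with a peak at the minimum width of 300 bp), and CC and CXC chemokines 2 of 42 (CCL26 and CCL27). C-type lectins had 3 of 31, including CLEC11A, a growth factor gene of bone, with a promoter peak of 7019 bp. Many of these families hold near-identical copies that share reads, so the absence of a peak is uncertain for them.

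**Figure D4:**
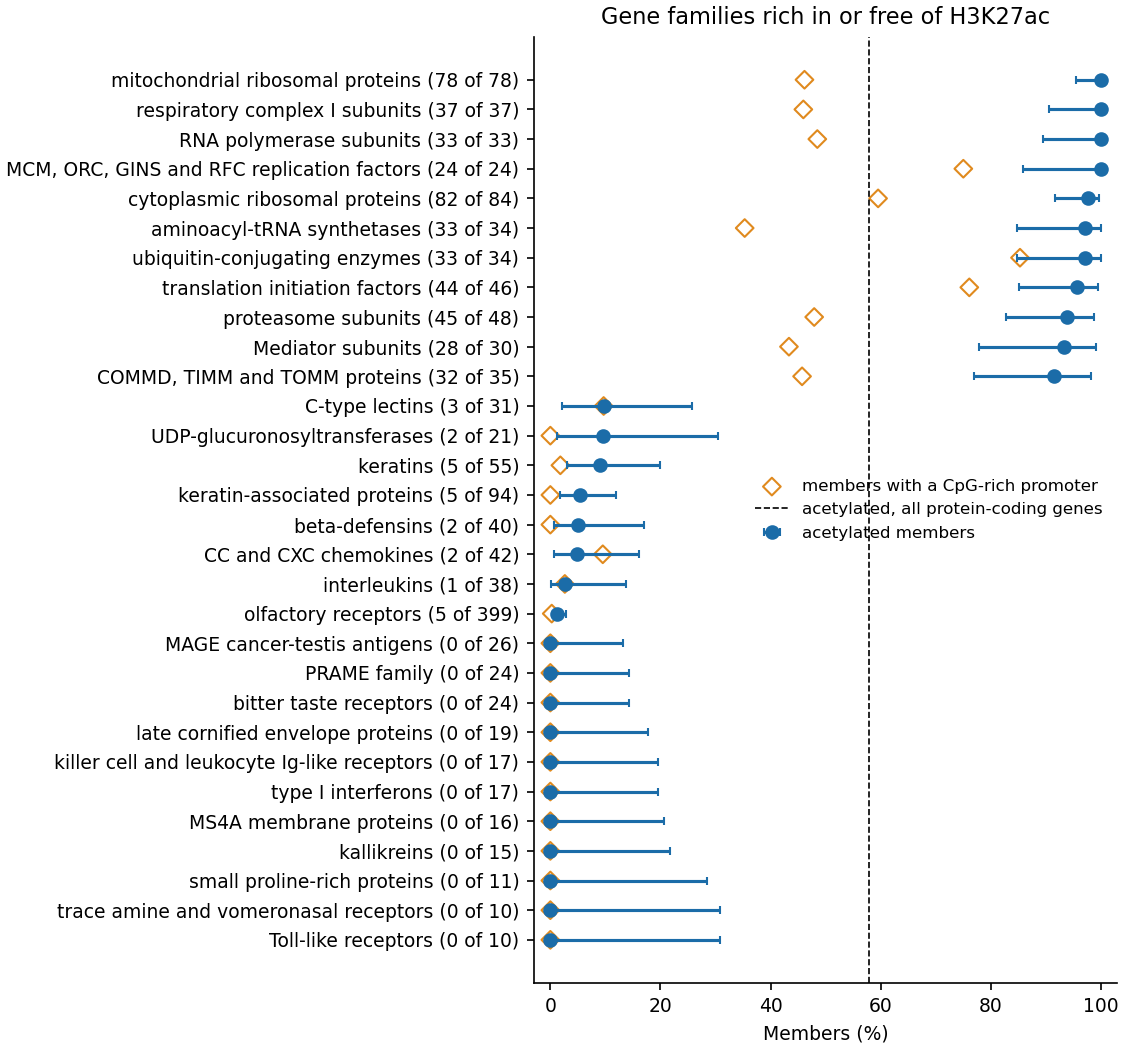
Share of members with an H3K27ac peak within 2.5 kb of a TSS (horizontal axis, percent) for the 11 families at 90% or more and the 19 at 10% or less (rows, with counts). Filled points are acetylated shares with 95% Clopper-Pearson intervals, open diamonds are shares with a CpG-rich canonical promoter, and the dashed line marks all genes at 57.9%. The rich families lie above 91%, although their CpG-rich shares reach from below 40% to above 85%.

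Between these ends, C2H2 zinc fingers named ZNF had 362 of 508 acetylated (71.3%), solute carriers 182 of 367 and voltage-gated potassium channels 9 of 40, of which 24 had a CpG-rich promoter. Nuclear receptors had 17 of 22. The HOX clusters, which pattern the body axis, differed from each other. HOXC had 9 of 9 and HOXB 9 of 10, but HOXD had 5 of 9 and HOXA 1 of 11, the one being HOXA10. HOXA had 8 genes with a CpG-rich promoter and HOXC 2, so the order of the clusters was not that of CpG content.

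Width also varied with the kind of gene. Among acetylated members, the median of the widest promoter peak was 3658 bp for 10 basic helix-loop-helix genes (up to 9759 bp at ID3, an inhibitor of that class) and 2828 bp for 24 HOX genes (up to 14129 bp at HOXC6). It was 2144 bp for the ribosomal protein genes, from 649 bp at RPL34 to 7514 bp at RPS2, and 2469 bp for SR and hnRNP splicing factor genes. Mitochondrial ribosomal protein genes had a median of 1302 bp, near that of all acetylated genes. Neighbouring genes can share a peak, and its width then counts for each of them. The widest promoter peak of NDUFB10, a complex I gene, was also 7514 bp.

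Acetylated bases were counted over each gene and 2.5 kb on each side. Any were found in 12879 genes (64.1%), including 1255 genes with a bare promoter. Acetylated genes had a median of 1864.5 bp (quartiles 1180 and 3201 bp). At least 10 kb was acetylated in 432 genes, or 2.15% (1.95 to 2.36%), and at least 20 kb in 104. RXRA (chr9:137208944-137332431), the gene of retinoid X receptor alpha, a partner of many nuclear receptors, had the most with 73674 bp, 57.3% of the length counted. MYOM2, a gene of the muscle M-band, followed with 59061 bp although its promoter was bare. PDCD6-AHRR, a read-through gene, had 58835 bp, and AHRR, the aryl hydrocarbon receptor repressor gene inside it, 49304 bp, so these counts overlap.

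Long genes could reach the top with thin coverage. DLG2, a gene of the postsynaptic scaffold, had 55894 bp, which was 2.57% of its length, and HDAC9, a histone deacetylase gene with a bare promoter, 45049 bp or 4.89%. PRRX2, a mesenchymal homeobox gene, had 40895 bp in a gene of 57028 bp, or 65.9% of the length counted, and NFIX, a nuclear factor I gene, 47620 bp. PRKCB was also among them, with 50378 bp. The rest of the 20 genes with most acetylated bases were GALNT17, GSE1, MACROD1, ZC3H3, SEPTIN9, SHB, ST3GAL3, ZNF423, MAPT and the unnamed genes ENSG00000255872 and ENSG00000284989, with 38637 bp at MAPT, the tau gene, as the lowest. Overlapping genes again share bases, as SHB does with ENSG00000255872 and ST3GAL3 with ENSG00000284989.

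Distal peaks lay a median of 38.5 kb from the nearest TSS, and 49.0% had their midpoint inside a protein-coding gene. They were assigned to the gene of the nearest TSS within 100 kb, which took 16890 of them (74.3%). Nearness is a rule of counting and not evidence that a peak acts on that gene. At least 1 distal peak was nearest to 4767 genes, or 23.7%, and 10 or more to 347 genes, or 1.73%. The latter count depended on the rule: it was 53 with the wider intervals only, 66 with neighbouring peaks merged, 207 with a limit of 50 kb and 542 without a limit. The 200 genes with most distal peaks, 1% of all, held 22.4% of the assigned peaks.

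Distal peaks were denser near acetylated genes. A distal peak was nearest to 3490 of 11624 acetylated genes (29.2 to 30.9%) and to 1277 of 8466 bare genes, or 15.1% (14.3 to 15.9%). Per Mb of territory, the stretch nearest to a gene's TSSs, there were 14.6 distal peaks for acetylated and 4.52 for bare genes. The same order was seen among small, middle and large territories (genes split into 3 equal groups), at 16.8 against 5.57, 16.1 against 5.72 and 13.8 against 4.02. Acetylated genes with a CpG-poor promoter (842) had the highest density of the CpG classes, 24.5 per Mb, compared with 14.9 for acetylated CpG-rich genes and 3.53 for bare CpG-rich genes. Of the 347 genes with 10 or more distal peaks, 306 (88.2%) were acetylated, and their median territory was 151 kb against 58.5 kb over all genes, so room for peaks differed as well.

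RXRA also had the most distal peaks, 50. TRMT9B, a tRNA methyltransferase-like gene, had 40, and LINGO1, a neuronal membrane protein gene, and RUNX3, a Runt factor gene, had 38 each. CD83, an immune surface protein gene, followed with 37 and MYO10, a gene of filopodial myosin, with 35. FOS, the AP-1 subunit gene, had 30 around a gene of 3405 bp. In the rest of the 20 were SEC11C, AHRR, ESRRB, BCL11B, FLRT1, GTF2IRD1, PAX7, PRKCB, SEPTIN9, SYF2, MKLN1, MYOM2 and ENSG00000255872, with 28 to 32 each. TBC1D16 had 28 as well, a tie with MKLN1 and MYOM2 for the last places. Of the 20, PAX7, BCL11B and PRKCB were on the identity list.

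Some genes without promoter acetylation had many distal peaks. MYOM2 had 28, WNT7B, a Wnt ligand gene, 23, PKHD1, a kidney cilium gene, 22, and HDAC9 and RHCG, an ammonia transporter gene, 20 each. WNT7B (chr22:46316246-46373042) had 0 acetylated bases in the gene and 2.5 kb on each side. The 23 distal peaks nearest to WNT7B covered 24423 bp. Within 150 kb of its canonical TSS lay 29 peaks covering 49805 bp, including a peak of 19475 bp whose nearest gene was PPARA. The same distance held 43 peaks with 61393 bp around PAX7 and 56 peaks with 95274 bp around RXRA. The genes named here for distal peaks at a bare promoter, other than MYOM2 and HDAC9, were chosen after their values were seen.

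**Figure D5:**
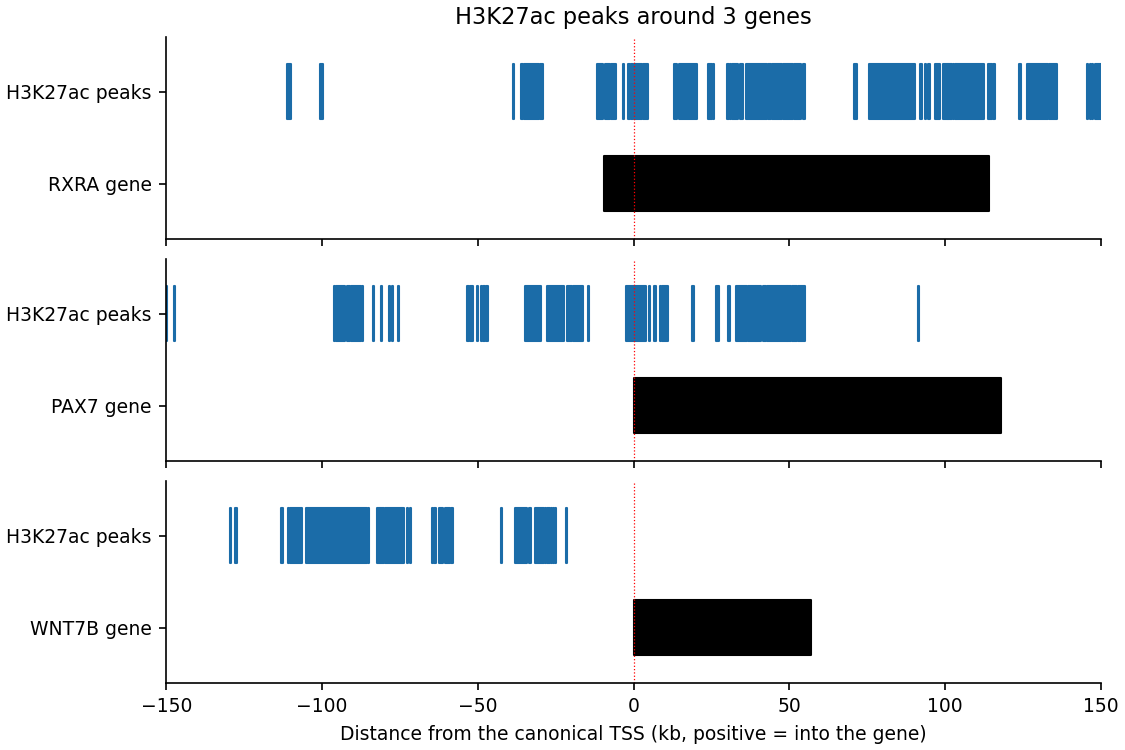
H3K27ac peaks (blue) and the gene body (black) around RXRA, PAX7 and WNT7B, drawn to scale against distance from the canonical TSS in kb (horizontal axis, positive into the gene, 150 kb on each side). Peaks lie on either side of the TSS and inside the gene at RXRA and PAX7, whereas all 29 peaks around WNT7B lie upstream of the gene and none at its start.

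The 500 bases at the centre of distal peaks were set beside windows moved 10 kb downstream that met no peak. The GC content was 50.0% in 22725 distal centres and 44.4% in 19099 moved windows, a difference that bears on every motif count. The SP/KLF box was in 19.0% of centres and 9.90% of moved windows, the ETS core in 3.46% and 1.63%, and the E-box CAGCTG in 27.4% and 20.1%. A pair of GGAA repeats, GGAAGGAA, the kind of sequence EWS-FLI1 binds in longer runs, was in 6.56% (6.24 to 6.89%) and 4.96% (4.66 to 5.28%). The AP-1 site TGANTCA was in 14.0% (13.5 to 14.4%) and 14.7% (14.2 to 15.2%). Other strings were less frequent in the centres, with the CCAAT box CCAAT at 42.9% and 50.5% and TATAAA at 22.7% and 34.4%.

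Genes of the same state formed long runs along chromosomes. The longest bare run had 61 genes from TDRKH to S100A6 (chr1:151742583-153508720) and spans the epidermal differentiation complex, with the LCE and SPRR genes. None of its genes had an acetylated base. The next had 60 genes from OR4C13 to APLNR on chromosome 11 (chr11:49973943-57004724), mostly olfactory receptors, and 45 genes from OR51D1 to TRIM34 (chr11:4658707-5699664) include the beta-globin genes. A run of 52 from DEFB1 to CLDN23 on chromosome 8 holds the defensins, many in near-identical copies, and 38 genes from GRIK1 to TIAM1 (chr21:30909254-32932290) hold keratin-associated proteins.

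Acetylated runs were shorter. The longest had 35 genes from ASRGL1 to CHRM1 (chr11:62104920-62689279), and 32 genes from PAPOLG to DNAAF10 stood across a wider stretch (chr2:60983388-68384681). A run of 24 reached from BBLN to LRRC8A (chr9:130922544-131680318) and a run of 23 from ATL3 to GPR137 (chr11:63391559-64056966). A run of 22 from PRR13 to HNRNPA1 (chr12:53835462-54680872) contained the HOXC cluster, and a run of the same length from TRIM26 to VARS2 lay on chromosome 6. Among stretches with few unknown bases in the genome sequence, the longest without a peak was 10.8 Mb (chr4:26863446-37687434), of which 0.0225 Mb was unknown. Lying in it or reaching into it were 7 protein-coding genes, among them the protocadherin gene PCDH7.

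By chromosome, the share of acetylated genes ran from 45.2% on X to 65.7% on chromosome 14, with a median of 59.8%. Chromosomes 21 (48.9%) and 11 (49.8%), which hold the runs of keratin-associated and olfactory receptor genes, were also low. Over CpG-rich promoters alone, chromosome 11 had 80.4% and 21 had 82.1%, near the median of 80.2%. X had 76.3%, and chromosomes 5 (74.6%), 10 (73.8%) and 15 (73.0%) were lower still. Distal peaks per Mb ranged from 2.69 on X to 14.6 on chromosome 19, with a median of 7.72. Chromosome 19 also had the most peaks per Mb, 34.3, and X the fewest, 5.78.

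Wide H3K27ac peaks met the other peak lists more often than narrow ones. An FLI1 peak overlapped 9.79% of the 8998 H3K27ac peaks of up to 400 bp, 47.5% of the 5695 between 1500 and 3000 bp and 98.3% of the 59 over 10000 bp. For SSRP1 the shares were 7.42%, 57.2% and 93.2% (83.5 to 98.1%) in the same classes. A wide interval has more room for an overlap. The share at a TSS did not keep rising with width: it was 21.7% up to 400 bp, 64.2% between 1500 and 3000 bp and 52.5% over 10000 bp (39.1 to 65.7%). Of the 1612 bare genes with a CpG-rich promoter, 222 (13.8%) had an FLI1 peak in a TSS window, beside 29.0% of all genes, and 338 (21.0%) an SSRP1 peak, beside 35.8%.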

How the data were processed

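ChIP-seq was made from SK-N-MC cells with 1 library each for H3K27ac, FLI1 and SSRP1 and 1 input. Sample titles gave the groups. Alignment to hg19 was done with Bowtie2 by the authors, and MACS2 peaks of each library over input passed a q-value of 0.05, per the design text. The submitters' processing notes give MACS2 version 2.2.7.1. For duplicate and multiply mapped reads the handling was not given in the sources used here, so regions with near-identical copies are uncertain. The deposited lists give chromosome, start, end and name of each peak and no strength, so their unit is a position in bp. No read depth or signal was analysed.

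Lines repeating an interval were merged, and starts were read as counted from 0, as in BED, and printed from 1. Genes were the 20090 protein-coding genes of GENCODE release 44 mapped to GRCh37 (20098 before duplicate symbols were dropped), with 56131 TSSs of basic transcripts. Sequences were read from the same GRCh37 genome. A distal peak met no TSS window and was assigned to the nearest TSS within 100 kb. Shares have 95% Clopper-Pearson intervals. The functions were tested on simulated data with planted peaks. Tools were pysam 0.24.0, scipy 1.17.1, pandas 2.3.3, numpy 2.4.6 and Python 3.11.15.

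The members, the 22 gene lists and the 89 symbol families were chosen with earlier results of these data known. Named were list members, the 20 genes with most acetylated bases or distal peaks, families of at least 8 members at 90% or more or 10% or less with up to 5 exceptions, the 5 longest runs of either state and the 5 peaks with most summits. Other genes, families and chromosomes named were chosen after their values were seen. PECAM1 of the endothelium list was not matched. A few list members are not reported here by name. Alternatives were other TSS windows, canonical TSSs, autosomes only, only intervals at or above the median width, an overlap of 20%, other distance limits for distal peaks, merged neighbours and other CpG classes.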

Additional observations from a re-analysis of the deposited data

Results flagged for a closer look

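On contigs of the build that are not placed on a chromosome, which none of the comparisons above used, the H3K27ac list held 73 peaks on 19 contigs. One contig alone carried 24 of them, covering 26224 bp. They enter no gene count given here.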

How the results depend on the processing

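Of 185 recomputed values, 148 stayed within the counting interval of the value reported or, for counts, within 1.5 times, and 37 did not. Only the CpG-rich minus CpG-poor difference has a direction, and it stayed positive in every setting where it was recomputed. With TSS windows of 1 kb and 5 kb, acetylated promoters were 56.7% and 59.5%, peaks at a TSS 33.5% and 43.9%, the CpG-rich minus CpG-poor difference 70.0 and 64.0 points, and genes with a distal peak 27.3% and 21.2%. At 5 kb the lists had 2 endothelium, 2 erythroid, 4 myeloid and 4 kidney and lung genes acetylated. With canonical TSSs only, acetylated promoters were 57.0%, peaks at a TSS 35.4% and genes with a distal peak 24.8%, and skeletal muscle, lymphocyte and epithelium had 1 gene each. With the wider intervals only, acetylated promoters were 50.1%, peaks at a TSS 53.3%, the CpG difference 63.4 points, genes with a distal peak 14.1%, genes with 10 or more distal peaks 53 and families at 90% or more 6. Mature neuron then had 2 genes, skeletal muscle, melanocyte and glia 1 each and endothelium 0. Comparing the upper and lower of 3 equal groups by observed/expected CpG gave 63.9 points. With distal peaks assigned within 50 kb or without a limit, genes with a distal peak were 20.8% and 26.4% and genes with 10 or more 207 and 542. With intervals less than 1 kb apart merged, peaks at a TSS were 45.6%, genes with a distal peak 22.4% and genes with 10 or more 66, since a group of peaks then counts once. The 20 genes with most distal peaks shared 9 to 20 with those reported and the 20 with most acetylated bases 17 to 20. The cause of the other changes was not tested. Canonical TSSs and the 20% overlap have no bearing on acetylated bases per gene and gave no value there. No paired analysis was possible because each target had 1 library. Read depth, which limits the weakest peaks that can be called, was not analysed here.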
